A study of Homo sapiens with 6 samples.

Results

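The actin cytoskeleton and SRF-linked genes are a module of 48 genes: the transcription factor SRF, the non-muscle actins, and proteins that move, bind, branch, cap, recycle or anchor actin filaments. Members were taken by symbol, 48 of the 30960 genes in the table. Of these, 47 were among the 14275 genes with at least 1 CPM (reads per 1000000, as scaled by the authors) in at least 3 of the 6 libraries, and only MYL9 was left out. The cells were HEK293, a human embryonic kidney cell line, transfected by Lipofectamine with 158 ng of plasmid per cm2 and harvested for RNA at 48 h. The 3 PKI libraries came from cells given GFP fused to PKI1-24. The 3 inPKI libraries came from cells given GFP fused to inPKI1-24, named as the control. Cells of both groups therefore carried a GFP fusion, and no untransfected cells were analysed here. Libraries of a group are told apart by the letters A to C. No label says that they are separate cultures, and the spread behind each p-value may therefore be technical.

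Protein kinase A is the kinase that cAMP switches on, and PKI proteins are its small natural inhibitors. SRF is a DNA-binding factor that recognises the CArG box and works with a pair of cofactor families. The myocardin-related factors are held back by actin monomers and drive cytoskeletal genes, and the ternary complex factors respond to ERK and drive immediate early genes. Protein kinase A is also known to act on the cytoskeleton through actin-regulating proteins.

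Of 43 members with a promoter window in RefSeq (GRCh38.p14, 250 bases before to 50 after each annotated start), 7 held a CArG box. No window was at hand for ACTB, MYL9, TAGLN, PFN2 and ARPC1B. The box is CC, then 6 bases that are each A or T, then GG, a pattern that reads the same on both strands. By window, 10.8% of the members' 83 windows held the box, against 1.29% of all 35116 windows of the same length. The sequences are shown because this is the letter pattern that links these members to SRF. A match in letters is no evidence of binding. Each sequence runs 5′ to 3′ on the gene's strand, and capitals mark the box. For SRF the 250 bases before the start are given, with boxes ending 21 bases and 1 base upstream of the start. The other sequences hold 25 bases on either side of the box, which ended 85 bases upstream of the start in ACTG1, 80 in CNN2, 164 in TPM4, 162 in ACTN1, 117 in FHL1, and 50 and 92 at 2 starts of FHL2.
SRF, chr6:43171019-43171268 (plus strand): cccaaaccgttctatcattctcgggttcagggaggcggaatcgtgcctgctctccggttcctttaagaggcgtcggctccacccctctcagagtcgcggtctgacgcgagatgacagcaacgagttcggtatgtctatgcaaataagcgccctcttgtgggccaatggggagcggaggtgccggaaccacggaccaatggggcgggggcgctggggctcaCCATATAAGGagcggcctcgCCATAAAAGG
ACTG1, chr17:81512859-81512918 (minus strand): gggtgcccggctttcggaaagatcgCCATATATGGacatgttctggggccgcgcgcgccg
CNN2, chr19:1026494-1026553 (plus strand): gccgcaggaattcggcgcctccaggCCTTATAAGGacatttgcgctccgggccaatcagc
TPM4, chr19:16067340-16067399 (plus strand): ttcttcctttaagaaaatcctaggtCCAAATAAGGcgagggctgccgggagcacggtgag
ACTN1, chr14:68977703-68977762 (minus strand): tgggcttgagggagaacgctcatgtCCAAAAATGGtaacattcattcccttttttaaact
FHL1, chrX:136196896-136196955 (plus strand): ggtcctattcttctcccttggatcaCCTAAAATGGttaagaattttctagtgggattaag
FHL2, chr2:105399076-105399135 (minus strand): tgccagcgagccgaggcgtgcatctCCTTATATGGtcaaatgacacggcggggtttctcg
FHL2, chr2:105438580-105438639 (minus strand): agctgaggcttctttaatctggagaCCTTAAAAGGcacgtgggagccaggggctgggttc
The cAMP response element TGACGTCA, the site of the protein kinase A target CREB, was in 1 of the members' windows, that of MYL6 (1.2%, against 1.85% of all windows). Its shorter form TGACG, on either strand, was in 22.9% of the members' windows and 24.6% of all windows, and it lies inside the full element.

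The gene for PKI alpha, PKIA, was the check of the labels. Whether its reads came from the plasmid or from the cell's own gene cannot be told from these values. PKIA measured 43.2, 42.3 and 46.1 CPM in PKI A, B and C, against 9.05, 11.3 and 8.65 CPM in inPKI A, B and C. Reads recovered from the CPM came to 17244715 to 23589438 per library, with PKI C the lowest, and 1 read was worth 0.0333 to 0.0437 CPM. All 7 HEK293 markers listed passed the filter, with VIM at 560 to 652 CPM but PAX2 at only 0.58 to 1.31 CPM. The leukocyte gene CD3E and the fibroblast gene DCN were at 0 in every library, but other genes of their lists were not. The fibroblast genes COL1A1 and COL3A1 measured 16.4 to 20.3 CPM and 1.92 to 2.26 CPM, and the leukocyte gene CD14 had 1 to 13 reads. The keratinocyte gene KRT5 measured 26.5 CPM in inPKI C and 9.84 to 13.2 CPM in the other libraries.

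No member passed the test. With limma on log2(CPM + 1) and Benjamini-Hochberg adjustment over all 14275 genes, 0 of 47 members were at an adjusted p below 0.05, where 18 genes in all were (0.126%). With edgeR on the recovered reads 0 members passed, where 0.0771% of genes did, and with DESeq2 2 members passed, MYH9 and PFN1, where 1.51% of genes did. At an unadjusted p below 0.05 the members numbered 2 higher and 7 lower in PKI, where the shares of all genes were 7.53% and 6.16%. The PKI and inPKI libraries did not overlap for 2 members that were higher and 8 that were lower in PKI, where the shares of all genes were 10.9% and 8.88%. The log2 changes, PKI minus inPKI, ran between -0.17 and 0.24 and were below 0 for 38 members and above 0 for 9. Their median was -0.056, beside -0.0074 over all genes tested. Most members are abundant, and the 44 with a mean of at least 25 CPM had a median of -0.056. All 6539 genes at that level had a median of -0.025, with 2559 above 0.

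The direction of the list rested on 1 library. PKI C was the lowest of the 6 libraries for 41 of the 47 members (87.2%), against 39.4% of all genes tested and 57.1% of the genes with a mean of at least 25 CPM. Relative to the inPKI mean, the members' median log2 level was -0.013 in PKI A, 0.010 in PKI B and -0.18 in PKI C. Over all genes the same medians were 0.0071, 0.025 and -0.050. Over the genes with a mean of at least 25 CPM they were 6.6e-05, 0.021 and -0.096. The members' CPM summed to 10096 in PKI A, 10031 in PKI B and 8909 in PKI C, against 10148, 10051 and 9995 in inPKI A, B and C. By these sums PKI C alone stood low, while PKI A and PKI B lay among the inPKI libraries. The members' medians in inPKI A, B and C were 0.0013, 0.0078 and -0.011, with PKI A just below and PKI B just above them. Without PKI C, 26 members lay above 0 and 21 below, the median was 0.0083 beside 0.013 over all genes, and MYH9 passed. PKI C also had the lowest deposited CPM total, 754299 against up to 785007 in the other libraries. The part of its depth or RNA quality in the members' values was not tested.

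**Figure D1:**
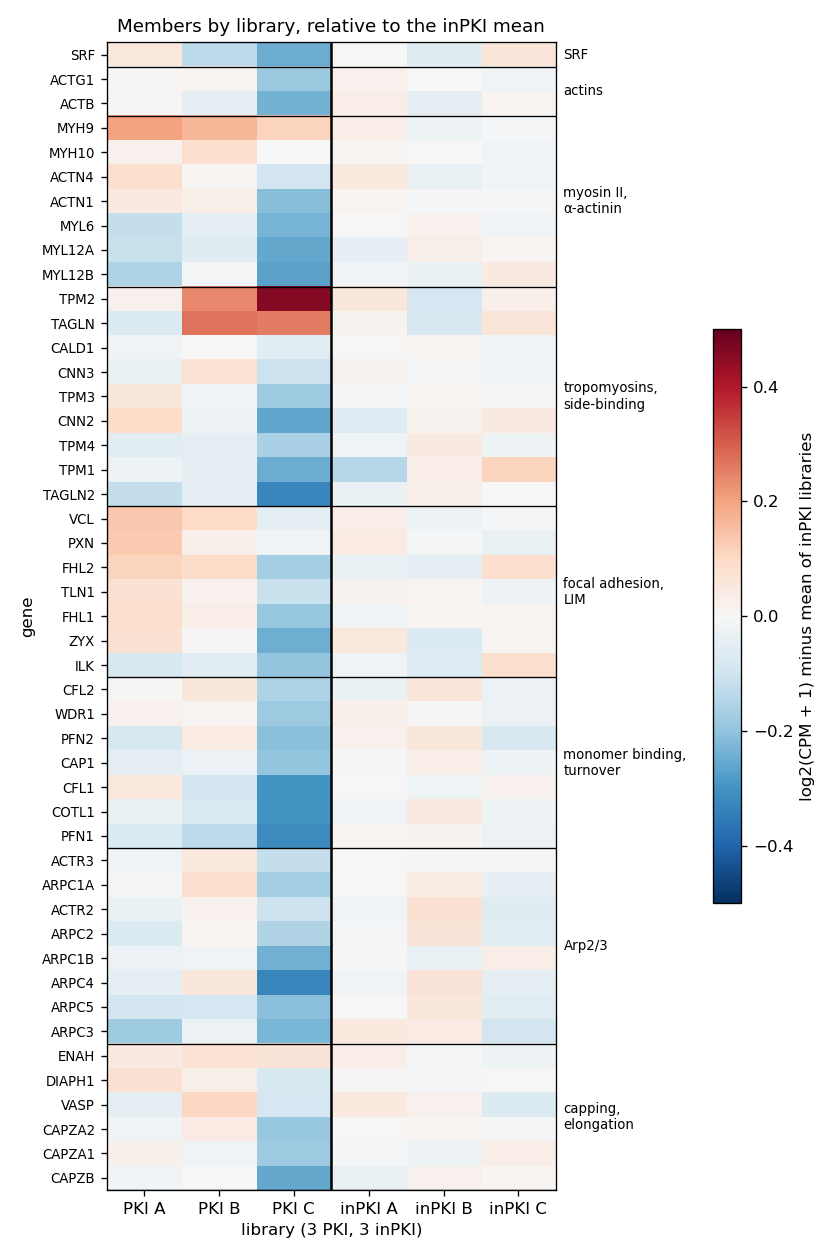
Level of the 47 tested members (rows, grouped by role) in the 3 PKI libraries (left columns) and the 3 inPKI libraries (right columns), as log2(CPM + 1) minus the mean of the inPKI libraries, blue below and red above it. The PKI C column is blue in most rows, and it was the lowest library for 41 of 47 members; MYH9 is red in all 3 PKI columns.

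SRF itself, at chr6:43171299-43181507 on GRCh38, measured 105, 92.0 and 84.6 CPM in PKI A, B and C, against 101, 96.6 and 105 CPM in inPKI A, B and C. The groups overlapped, with PKI A among the inPKI values. The log2 change was -0.11 ± 0.069 (SE, 95% interval -0.26 to 0.039, limma adjusted p = 0.501). It was -0.038 without PKI C and -0.19 without PKI A. Among the 7 members whose promoter sequences are shown above, SRF included, the log2 changes were below 0 for 6, with FHL2 at 0.011, and their median was -0.056. Without PKI C, that median was 0.032, and 5 of the 7 lay above 0.

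The cytoplasmic actins, the monomers from which filaments are built, were the most abundant members. Per kilobase of transcript, ACTG1 (chr17:81509971-81523847) averaged 829 CPM per kb in PKI and 860 in inPKI libraries, and ACTB (chr7:5527147-5563784) 695 in PKI and 740 in inPKI libraries. In CPM, ACTB measured 1428, 1374 and 1205 in PKI A, B and C, against 1455, 1372 and 1436 in inPKI A, B and C. ACTG1 measured 1944, 1956 and 1707 CPM in PKI A, B and C, against 1967, 1936 and 1915 CPM in inPKI A, B and C. For both genes the PKI and inPKI libraries overlapped and PKI C was the lowest. The log2 changes were -0.093 ± 0.086 for ACTB (95% interval -0.28 to 0.091) and -0.056 ± 0.091 for ACTG1 (-0.25 to 0.14), with limma adjusted p-values of 0.653 and 0.817. Without PKI C they were -0.021 for ACTB and 0.0083 for ACTG1.

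Non-muscle myosin II, the motor that pulls on actin filaments, is built of heavy chains (MYH9, MYH10), essential light chains (MYL6) and regulatory light chains (MYL9, MYL12A, MYL12B). MYH9, the heavy chain of myosin IIA at chr22:36281277-36388067, measured 370.0, 361 and 348 CPM in PKI A, B and C, against 329, 316 and 320 CPM in inPKI A, B and C. Every PKI library was above every inPKI library, and PKI C was the lowest of its group here too. Its log2 change was 0.16 ± 0.056 (95% interval 0.041 to 0.28), with a limma p of 0.0119 and an adjusted p of 0.239, so it did not pass. DESeq2 on the recovered reads put it at 0.17 with an adjusted p of 0.00367, one of 216 genes (1.51%) that this tool called, and limma without PKI C put it at 0.18 with an adjusted p of 0.044, one of 46 genes called there (0.326%). Over all alternatives its adjusted p ran between 0.00367 and 0.614. MYH10, the heavy chain of myosin IIB, measured 278, 291 and 275 CPM in PKI A, B and C, against 276, 275 and 272 CPM in inPKI A, B and C, with overlapping groups and a log2 change of 0.035 ± 0.054 (adjusted p = 0.804).

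The light chains lay on the other side of 0, and none passed. MYL6 measured 237.7, 249.2 and 219.4 CPM in PKI A, B and C, against 258, 262 and 255 CPM in inPKI A, B and C, without overlap. MYL12A, at chr18:3247481-3256236, measured 41.7, 43.2 and 37.6 CPM in PKI A, B and C, against 43.8, 46.0 and 45.4 CPM in inPKI A, B and C, again without overlap. MYL12B, its neighbour and close paralog, measured 67.3, 74.4 and 62.0 CPM in PKI A, B and C, against 74.3, 73.3 and 77.3 CPM in inPKI A, B and C, and the groups overlapped. Their log2 changes were -0.13 ± 0.059, -0.14 ± 0.062 and -0.14 ± 0.064, with limma adjusted p-values of 0.331, 0.339 and 0.342. Without PKI C they were -0.085, -0.085 and -0.082. MYL9, the smooth muscle type regulatory light chain, had only 3, 2 and 2 reads in PKI A, B and C, against 1, 3 and 4 reads in inPKI A, B and C, and was not tested. Reads of MYL12A and MYL12B can be split between these near-identical copies, and MYL6 shares part of its locus, on the same strand, with MYL6B. MYL6B, which is no member, lay at a log2 change of -0.20 ± 0.058 (limma adjusted p = 0.176), also lower in every PKI library than in any inPKI library.

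The ratio of MYH9 to the sum of MYL6, MYL12A and MYL12B was formed after these values were seen. It was 1.07, 0.984 and 1.09 in PKI A, B and C, against 0.876, 0.828 and 0.847 in inPKI A, B and C. The means were 1.05 ± 0.056 in PKI and 0.850 ± 0.024 in inPKI (SD, n = 3 each), a fold of 1.23, with no overlap. The exact permutation test, 2-sided, gave p = 0.1, the smallest that 3 libraries against 3 allow. MYH9 and the most abundant light chain, MYL6, had already separated the groups in opposite directions. The lack of overlap and this p therefore followed from values already seen and add no support. Leaving out any library kept the fold between 1.21 and 1.27, and PKI C had the highest ratio of the 6 libraries. With trends of transcript length and GC content removed, the log2 changes that the ratio sets against each other shrank to 0.083 for MYH9 and to -0.024, -0.052 and -0.056 for MYL6, MYL12A and MYL12B.

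**Figure D2:**
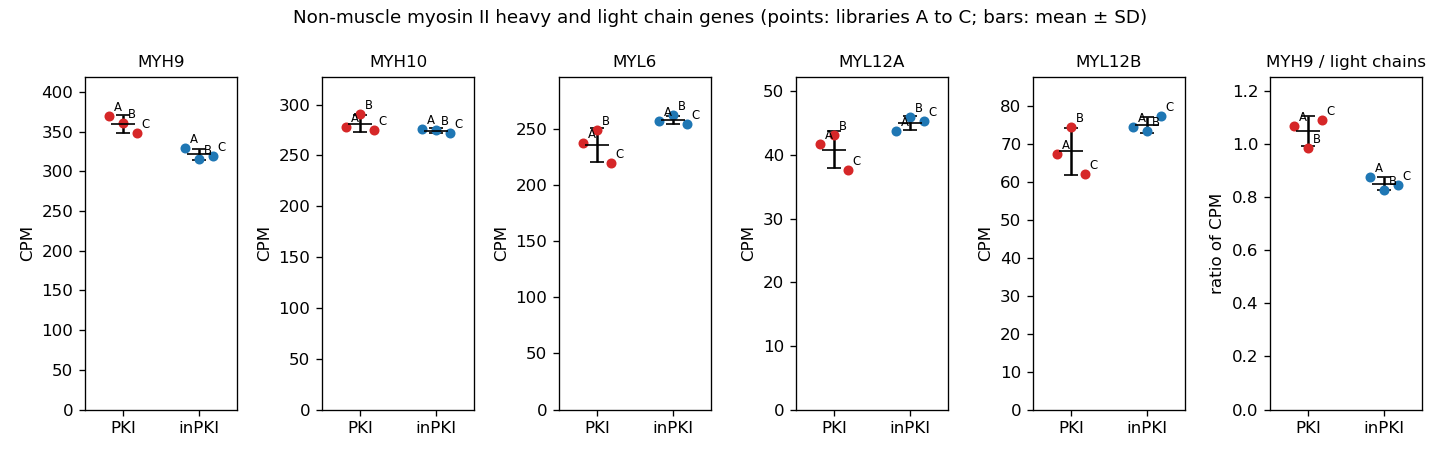
CPM of the non-muscle myosin II heavy chain genes MYH9 and MYH10 and light chain genes MYL6, MYL12A and MYL12B, and, at the right, the ratio of MYH9 to the summed light chains, in PKI (left) and inPKI (right) libraries; points are libraries A to C and bars are mean ± SD, n = 3. MYH9 and the ratio were higher in every PKI library than in any inPKI library, with ratios of 0.984 to 1.09 in PKI and 0.828 to 0.876 in inPKI.

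Of the other members that cross-link filaments, the alpha-actinins ACTN1 and ACTN4 lay at log2 changes of -0.045 and -0.0016. The tropomyosins, which wind along filaments, and the other side-binding proteins gave 9 tested members with a median of -0.049, or 0.019 without PKI C. TPM2, beta-tropomyosin, had the most positive change of the module with all 6 libraries: 13.5, 15.9 and 18.7 CPM in PKI A, B and C, against 13.9, 12.5 and 13.6 CPM in inPKI A, B and C. PKI A lay within the inPKI range and PKI C was the highest library, the reverse of most members. Its log2 change was 0.24 ± 0.10 (95% interval 0.027 to 0.45), with a limma p of 0.0298 and an adjusted p of 0.315. Without PKI C it was 0.13, below the 0.18 of MYH9. TAGLN2, a calponin-related protein, measured 319, 336 and 276 CPM in PKI A, B and C, against 339, 354 and 347 CPM in inPKI A, B and C. Its groups did not overlap, and its log2 change was -0.16 ± 0.069 (adjusted p = 0.321), or -0.083 without PKI C. TPM4 measured 198, 199.6 and 184 CPM in PKI A, B and C, against 203, 212 and 203 CPM in inPKI A, B and C, also without overlap, with a log2 change of -0.088 ± 0.055 (adjusted p = 0.493), or -0.050 without PKI C. TAGLN, the smooth muscle transgelin often used as an SRF reporter gene, was low, at 2.11, 2.93 and 2.89 CPM in PKI A, B and C, against 2.30, 2.08 and 2.40 CPM in inPKI A, B and C, with overlapping groups. TPM1, TPM3, CALD1, CNN2 and CNN3 overlapped between groups and lay between -0.10 and -0.023.

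Proteins that bind actin monomers or turn filaments over had a median log2 change of -0.091, or -0.020 without PKI C, and all 7 lay below 0. PFN1, profilin, which loads monomers for filament growth, lies at chr17:4945652-4949061 and had the most negative change of the module with all 6 libraries. It measured 558, 535 and 469.9 CPM in PKI A, B and C, against 591, 592 and 574 CPM in inPKI A, B and C, with no overlap. The means were 521 ± 46 CPM in PKI and 586 ± 10.3 CPM in inPKI (SD, n = 3 each). The log2 change was -0.17 ± 0.071 (95% interval -0.32 to -0.021), with a limma p of 0.0286 and an adjusted p of 0.313. DESeq2 put it at -0.16 with an adjusted p of 0.0323, and over all alternatives the adjusted p ran between 0.0323 and 0.653. Without PKI C its change was -0.10, with ARPC3 slightly lower. COTL1, a coactosin that binds filaments, measured 83.9, 81.3 and 69.7 CPM in PKI A, B and C, against 84.8, 88.6 and 84.4 CPM in inPKI A, B and C, and its log2 change was -0.14 ± 0.066 (adjusted p = 0.379). CAP1, which recharges monomers with ATP, measured 174, 176 and 157 CPM in PKI A, B and C, against 179, 184 and 177 CPM in inPKI A, B and C, a log2 change of -0.091 ± 0.057 (adjusted p = 0.497). Without PKI C the changes were -0.056 for COTL1 and -0.038 for CAP1. COTL1 and CAP1 did not overlap between groups either, though the highest PKI library lay close to the lowest inPKI library in both. The cofilins CFL1 and CFL2, which sever filaments, WDR1, their cofactor, and the second profilin PFN2 overlapped, at -0.11, -0.030, -0.048 and -0.083.

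The ratio of PFN1 to the summed actins ACTB and ACTG1, also formed after the values were seen, was 0.166, 0.161 and 0.161 in PKI A, B and C, against 0.173, 0.179 and 0.171 in inPKI A, B and C. No library overlapped, and PKI C did not stand apart (exact permutation test, 2-sided, p = 0.1). PFN1, the most negative member, had already separated the groups. The lack of overlap and this p therefore add no support. The ratio of ACTB to ACTG1 averaged 0.714 ± 0.017 in PKI and 0.733 ± 0.021 in inPKI libraries, which overlapped (exact p = 0.2). In all, 5 such ratios were computed, and none of their exact p-values could fall below 0.1 in this design. The remaining ones were MYH9 to MYH10, a fold of 1.09 (exact permutation p = 0.1), and CFL1 to PFN1, a fold of 1.04 (exact permutation p = 0.3).

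The 8 subunits of the Arp2/3 complex, which starts branches on filaments, lay below 0 without exception, with a median of -0.083, or -0.014 without PKI C, and PKI C was the lowest library for all 8. ARPC3 measured 111, 123 and 107 CPM in PKI A, B and C, against 130.4, 129.8 and 118 CPM in inPKI A, B and C, and PKI B lay above inPKI C. ARPC5 measured 85.9, 86.2 and 79.3 CPM in PKI A, B and C, against 91.6, 95.3 and 88.2 CPM in inPKI A, B and C, and was the only subunit without overlap. Their log2 changes were -0.14 ± 0.062 and -0.13 ± 0.056, with limma adjusted p-values of 0.326 and 0.324, and -0.10 and -0.090 without PKI C. ARPC1B overlapped at -0.096 ± 0.066 (adjusted p = 0.538). The most abundant subunit in CPM, ACTR2, the actin-like Arp2, measured 274, 284 and 260.4 CPM in PKI A, B and C, against 276, 295 and 268 CPM in inPKI A, B and C. The actin-like subunits ACTR2 and ACTR3, which form the base of the new branch, lay nearest to 0 together with ARPC1A, at -0.037, -0.029 and -0.034. ARPC4 shares exons with the read-through gene ARPC4-TTLL3, which measured 7.35 to 10.9 CPM in PKI libraries and 5.69 to 8.89 CPM in inPKI libraries, so its reads are uncertain to that extent.

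Capping and elongation factors, which close or extend filament ends, had a median of -0.033. ENAH, an anti-capping protein of the Ena/VASP family, measured 276, 281 and 279.9 CPM in PKI A, B and C, against 274, 266 and 263 CPM in inPKI A, B and C. It was, with MYH9, the only member higher in every PKI library than in any inPKI library, at a log2 change of 0.060 ± 0.053 (adjusted p = 0.636). With length and GC trends removed ENAH lay at -0.089. The capping protein subunits CAPZB, CAPZA1 and CAPZA2 overlapped, at -0.089, -0.057 and -0.056, or -0.0051, 0.0048 and 0.011 without PKI C. VASP and the formin DIAPH1, which extends filaments, were at -0.0098 and 0.0079.

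Focal adhesion and LIM proteins, which tie filaments to integrins, were centred at 0: the median of the 7 was -0.0032, or 0.058 without PKI C, and the groups overlapped for all 7. VCL, vinculin, measured 203, 198 and 179 CPM in PKI A, B and C, against 189, 182 and 183 CPM in inPKI A, B and C. PKI A and PKI B were above all inPKI libraries and PKI C below them, and the log2 change was 0.063 ± 0.058 (adjusted p = 0.654). TLN1, talin, was at 252, 242 and 221 CPM in PKI A, B and C, against 241, 240.0 and 234 CPM in inPKI A, B and C, the same order, with a log2 change of -0.0032 ± 0.059. Without PKI C, VCL lay at 0.12 and TLN1 at 0.050. ILK, an integrin-linked pseudokinase, lay at -0.11 ± 0.059 (adjusted p = 0.433) and PXN, paxillin, at 0.045 ± 0.059 (adjusted p = 0.757). ZYX, FHL1 and FHL2 lay between -0.054 and 0.011.

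**Figure D3:**
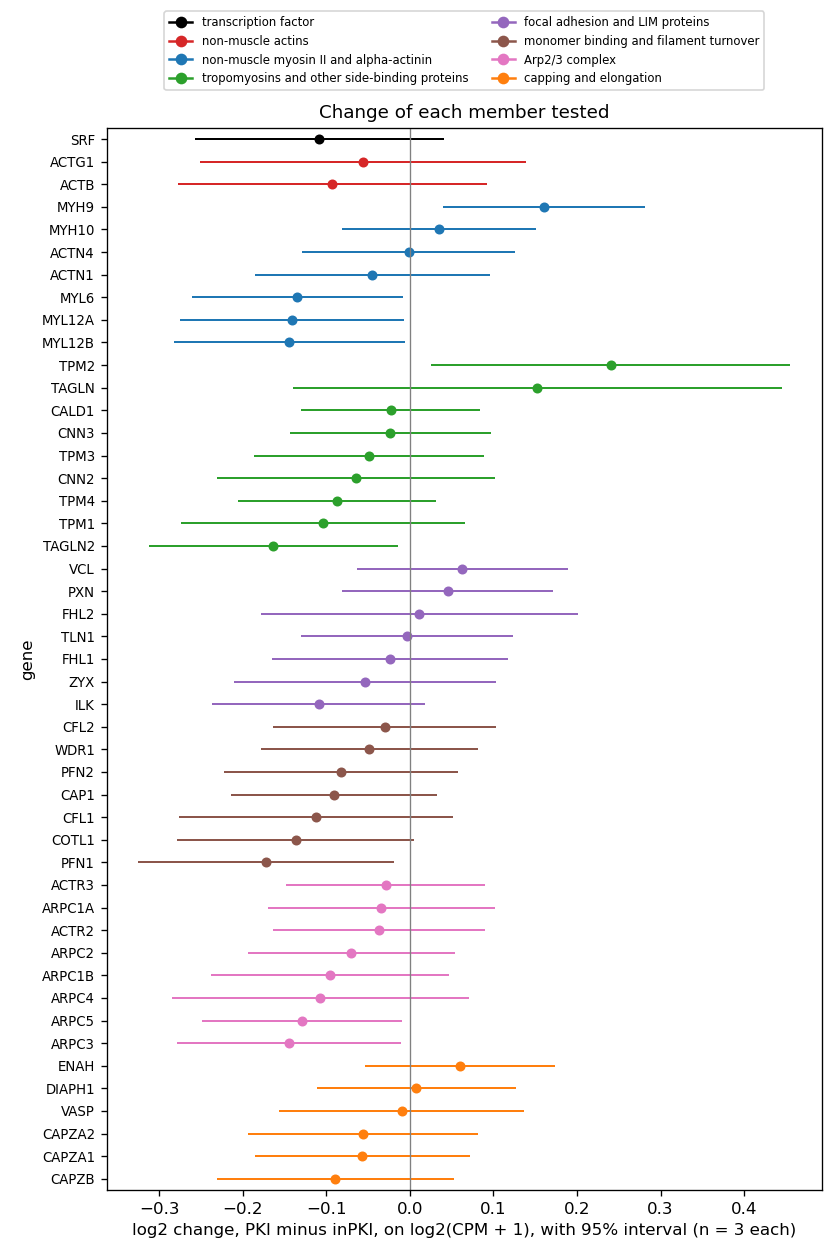
Log2 change, PKI minus inPKI, of the 47 tested members with 95% intervals from limma, grouped by role. With all 6 libraries the estimates lie between -0.17 (PFN1) and 0.24 (TPM2), and no member passed the adjusted threshold.

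The members' changes moved with transcript length. Lengths are those of 1 GENCODE 29 transcript per gene. Of the 17 members under 2000 bases, 2 lay above 0 and the median was -0.10, beside -0.083 for all 3839 genes of that length. Of the 20 members of 2000 to 5000 bases, 2 lay above 0 and the median was -0.051, beside -0.0096 for 7112 genes. Of the 10 members over 5000 bases, 5 lay above 0 and the median was 0.0023, beside 0.066 for 3291 genes. Across genes, which are not independent replicates and share the same 6 libraries, Spearman's rank correlation between length and log2 change was 0.541 over the 47 members and 0.434 over 14242 genes. Without PKI C it was 0.463 over the members. With length and GC trends removed it was -0.267 over the members and -0.00024 over all genes. The 10 members over 5000 bases then had a median of -0.086, beside 0.00053 for all genes of that length. MYH9, at 7554 bases, and MYL6, MYL12A and MYL12B, at 901, 1229 and 1249 bases, sit at opposite ends of this range. With trends of length and GC content removed from each library, MYH9 lay at 0.083 (limma adjusted p = 0.48), PFN1 at -0.098 (adjusted p = 0.456), ARPC3, with 1014 bases, at -0.041 and ARPC5, a short protein with a long transcript of 7209 bases, at -0.20 (adjusted p = 0.215). The members' median was then -0.041, and 0 members passed.

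**Figure D4:**
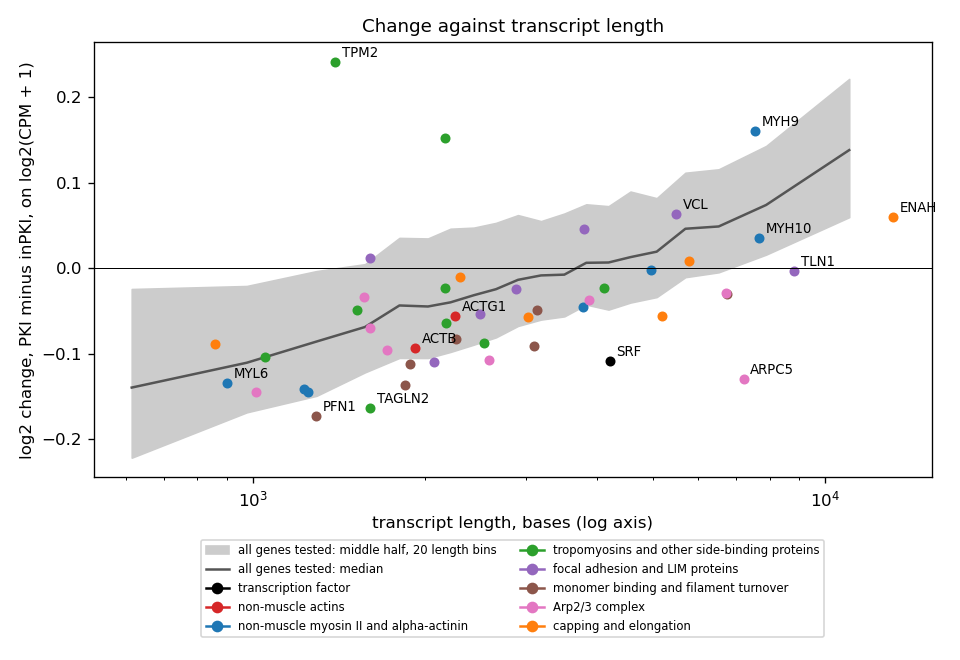
Log2 change, PKI minus inPKI, against transcript length in bases (log axis) for the 47 tested members (points), with the median (line) and the middle 50% (band) of all tested genes in 20 bins of length. Short members lie mostly below 0 and members over 5000 bases around 0, as the line over all genes also climbs with length.

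Other genes of the pathway were taken from lists of textbook members. These lists were chosen with earlier results of these data known, so their counts describe the lists and are no independent support. Of 19 tested immediate early and cytoskeletal genes known as SRF targets outside the module, 1 passed limma, 16 lay above 0 and 7 were higher in every PKI library than in any inPKI library, against 10.9% of all genes. Over all genes tested, 6771 of 14275 lay above 0. The median of the 19 was 0.098, and 0.13 without PKI C. EGR1, an immediate early transcription factor that ternary complex factors control, measured 33.1, 24.96 and 27.1 CPM in PKI A, B and C, against 16.5, 11.7 and 14.6 CPM in inPKI A, B and C. It was higher in PKI by 0.95 ± 0.11 on the log2 scale (limma adjusted p = 0.00198). With any 1 library left out it stayed between 0.82 and 1.05 and passed, and with no filter on low values its adjusted p was 0.142. The other immediate early genes did not pass and lay on both sides of 0. IER2 lay at 0.21 (adjusted p = 0.235), JUNB at 0.16 (adjusted p = 0.365), EGR3 at 0.22 (adjusted p = 0.486) and FOS at 0.31 (adjusted p = 0.366), with FOS overlapping. EGR2 at 0.098, MCL1 at 0.038, FOSB at -0.097 and CYR61 at -0.11 overlapped between groups. The cytoskeletal genes of this list did not pass either, and FLNA, filamin, was at 0.10 ± 0.054 (adjusted p = 0.405) and MYLK, the kinase of the myosin light chains, at 0.15 ± 0.085 (adjusted p = 0.445), both without overlap. ANKRD1, also of this list and without overlap, lay at 0.30 ± 0.11 (adjusted p = 0.285) and did not pass. FLNA and MYLK have long transcripts, of 8516 and 10027 bases. In the nearest length bins of all genes, centred at 7890 and 11022 bases, the median changes were 0.074 and 0.14. ANKRD1 has 1979 bases, and the bin centred at 2023 bases had a median of -0.045. PKI C was the lowest library for 4 of these 19 genes. The difference between this list and the module was not tested.

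Of the SRF cofactors, 5 of 6 in the table were tested and 0 passed. MKL2, a myocardin-related factor, measured 33.0, 32.5 and 36.4 CPM in PKI A, B and C, against 29.2, 29.1 and 31.3 CPM in inPKI A, B and C, a log2 change of 0.18 ± 0.065 (limma adjusted p = 0.258). MKL1, its relative, measured 43.8, 41.2 and 39.2 CPM in PKI A, B and C, against 38.6, 37.6 and 36.6 CPM in inPKI A, B and C, a log2 change of 0.13 ± 0.060 (adjusted p = 0.342). Both were higher in every PKI library than in any inPKI library without passing. MKL2 has a transcript of 8608 bases and MKL1 of 2901 bases. The nearest length bins of all genes, centred at 7890 and 2906.5 bases, had median changes of 0.074 and -0.014. Of the ternary complex factors, ELK4 measured 32.7, 34.1 and 46.4 CPM in PKI A, B and C, against 31.0, 31.1 and 36.7 CPM in inPKI A, B and C. Its groups overlapped, PKI C was the highest library, and its log2 change was 0.18 ± 0.11 (adjusted p = 0.468), or 0.025 without PKI C. ELK1 and ELK3 lay at -0.13 and -0.061, neither past the threshold.

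Of 28 other actin regulators, 0 passed, 8 lay above 0 and the median was -0.037. BRK1, a small subunit of the WAVE complex, at -0.18 ± 0.053 (adjusted p = 0.172), and TMSB10, a monomer-binding thymosin, at -0.18 ± 0.065 (adjusted p = 0.267), were lower in every PKI library than in any inPKI library. DESeq2 called TMSB10, at -0.17 with an adjusted p of 0.0487, while limma without PKI C put it at -0.10. BRK1 and TMSB10 have short transcripts, of 1233 and 496 bases. In the nearest length bins of all genes, centred at 1292 and 614 bases, the median changes were -0.086 and -0.14. Of 12 muscle-type SRF targets, 2 reached the filter and 0 passed, with ACTA2, smooth muscle actin, at 3.58, 3.53 and 2.67 CPM in PKI A, B and C, against 4.13, 4.01 and 3.56 CPM in inPKI A, B and C (log2 change -0.21, adjusted p = 0.48).

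Processed copies of members could take reads from their parents. The table held 63 rows named as copies of 15 members, of which 6 were tested and 0 passed. Copies of ACTG1 summed to at most 0.42% of ACTG1 and those of ACTB to at most 0.198% of ACTB, so they bear little on either. Copies of PFN1 summed to 0.688%, 0.666% and 1.01% of PFN1 in PKI A, B and C, against 0.350%, 0.413% and 0.404% in inPKI A, B and C. In CPM, these sums were 3.84, 3.56 and 4.77 in PKI A, B and C, against 2.07, 2.44 and 2.32 in inPKI A, B and C. PFN1 itself averaged 521 CPM in PKI and 586 CPM in inPKI libraries. PFN1P2 alone had 45, 47 and 59 reads in PKI A, B and C, against 22, 33 and 27 reads in inPKI A, B and C, without overlap (log2 change 0.50 ± 0.16, limma adjusted p = 0.219). Members that overlap a gene on the opposite strand include PFN1 with ENO3 and MYL12A and MYL12B with AP005329.1. Whether the counting used strand is not given in the sources used here, so reads of such pairs may be mixed.

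The authors' deposited table of their own comparison, with its sign turned so that positive is higher in PKI, called 0 members at its adjusted p below 0.05. It called only 14 of all 30960 genes. The authors' deposited table gave MYH9 0.17, PFN1 -0.16 and SRF -0.094. In the authors' deposited table, 2 members were at an unadjusted p below 0.05, TPM2 at 0.28 (p = 0.0336) and ARPC5 at -0.12 (p = 0.0493), and 12 members lay above 0. The adjusted p of both was 0.99994. The shares of all genes for these counts were not computed. Part of the signal in that comparison came from outside the 6 libraries. For MYL9 its baseMean was 1482.7, while the 6 libraries held 1 to 4 reads each. Its counts and p-values therefore cannot be compared directly with those of limma given above.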

How the data were processed

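RNA of 6 HEK293 samples was made into libraries with an mRNA kit, per the labels' protocols. Groups (PKI, inPKI, 3 libraries each) come from the titles. The authors deposited CPM for 30960 genes, going by the table's name RSEM counts scaled by TMM. Tools in the submitters' processing notes, given without role or order, are STAR 2.5.2b, RSEM 1.3.0, cutadapt 1.14 and DESeq2 1.20.0, and the build is hg19. In the authors' deposited comparison, per the file headers, are baseMean (a mean signal), the log2 fold change and its error, a score (the statistic and a signed fold) and p-values. Its log2 fold change is opposite in sign to its signed fold in all 30960 rows, and to PKI minus inPKI in all 107 genes at limma p below 0.001, so it was turned. In 2069 genes at 0 in all 6 libraries its baseMean is above 0, so it rests on more libraries than those analysed here.

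Members and lists were chosen with earlier results of these data known. Genes with at least 1 CPM in at least 3 libraries were tested on log2(CPM + 1), which understates changes of low genes, with limma 3.58.1 in R 4.3.3 (trend, 2-sided, Benjamini-Hochberg over all 14275, threshold 0.05). Every adjusted p is limma's unless another tool is named. All deposited CPM values (100%, tolerance 0.01 reads) were whole multiples of the smallest in their column, which gave the reads for edgeR 4.0.16 and DESeq2 1.42.0. These may be rounded estimates, and PCR copies cannot be told apart. Tests were tried on simulated counts. Named members are SRF, ACTB, ACTG1, in each role the 3 with the smallest p and the most abundant, those not tested, and the 2 most positive and 2 most negative changes. Others are named by range, and ratios were chosen after their values were seen. From other lists come those past the threshold or the 2 with the smallest p. Genes named beyond this were chosen after their values were seen. Positions, lengths and GC come from GENCODE 29 (GRCh38), matched for 30795 identifiers, while the authors' build is hg19. Libraries were not paired by letter in the main test, and deviations of same-letter libraries correlated only weakly (0.014 to 0.028). One further list of genes is not reported here.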

Additional observations from a re-analysis of the deposited data

How the results depend on the processing

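Members passing numbered 0 in all alternatives but DESeq2 (2, MYH9 and PFN1) and limma without PKI C (1, MYH9), so leaving out libraries gave 0 to 1. Over all genes the calls numbered 18 with limma, 11 with edgeR, 216 with DESeq2, 4 without a filter, 9 with length and GC trends removed, 11 with columns rescaled to an equal sum, and 9 to 121 when 1 library was left out. The members' median stayed between -0.056 and -0.041 under other settings and ran from -0.086 (without PKI A) to 0.0083 (without PKI C) when 1 library was left out. The replicate block gave 0 members, the same median of -0.056, and 124 genes in all, against 18 without it. Same-letter correlations were small, at 0.017, 0.014 and 0.028, beside -0.022 to 0.010 for unlike letters. Each library correlated best with its own letter. Whether libraries of the same letter share a batch was not tested. Some small changes turned sign: CAPZB to 0.027 and ENAH to -0.089 with trends removed, and TLN1 to 0.0060 with DESeq2, 0.0062 with edgeR and 0.0063 with equal sums. With 1 library left out, TLN1 ran from -0.044 to 0.050, ACTG1 from -0.090 to 0.0083, ACTR2 from -0.067 to 0.0011 and CAPZA1 from -0.099 to 0.0048. TLN1 was also positive without inPKI A (0.0052) and without inPKI B (0.00084). The cause was not tested. Removal of trends changes the values by length and GC content by construction. Depth limits MYL9, whose 1 to 4 reads a library show no difference that could be read.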

Other observations

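CNN1, a smooth muscle calponin and known SRF target, was under the filter but had 32, 28 and 17 reads in PKI A, B and C, against 8, 10 and 4 reads in inPKI A, B and C. With no filter its log2(CPM + 1) change was 0.61 ± 0.11, with a limma p of 0.00044 and an adjusted p of 0.333, so it did not pass. ACTA1, skeletal muscle actin, had 15, 25 and 20 reads in PKI A, B and C, against 11, 8 and 10 reads in inPKI A, B and C, a change of 0.34 (adjusted p = 0.432 with no filter). Both were higher in every PKI library than in any inPKI library, and both were chosen after their values were seen. DES, another muscle-type gene, had 1 to 2 reads in PKI libraries and 1 to 5 reads in inPKI libraries.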
